A study of Mus musculus with 18 samples.

Results

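Rimkla, Pkd2l1 and Mgarp are 3 mouse genes whose microarray levels differed widely between cultured basophils of different Cebpa genotype before any drug was added. They are 3 of the 19084 genes that the array's annotation names on 26423 probes. They were picked for the size of the difference between untreated floxed and untreated wild type basophils, so that difference is described here with no test. Rimkla has 2 probes, of which the one with the higher mean over 18 arrays was used, and Pkd2l1 and Mgarp have 1 each.

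The study measured 18 arrays in 6 groups of 3, all from C57Bl/6 mice, to ask what the myeloid transcription factor Cebpa controls in basophils. Floxed basophils (Cebpa f/f RosaYFP/creER), in which loxP sites flank Cebpa, were cultured with interleukin-3 (IL-3, 20 ng/ml) over 5 days, either with 4-hydroxytamoxifen at 100 nM or without it. Wild type basophils (Cebpa +/+ RosaYFP/creER) were kept in the same way, with or without the drug, so both genotypes carried the drug-inducible Cre recombinase (creER) and the yellow fluorescent reporter. The other groups were basophils purified from marrow 3 days after mice were given IL-3 complexed with its antibody, and mast cells grown from marrow in 20 ng/ml IL-3 for 4 weeks, neither with the drug. The sources used here do not give the promoter of the recombinase, the share of cells that recombined or the number of mice behind a sample, so p-values measure the spread between samples, which may be technical.

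Rimkla encodes an ATP-dependent ligase that joins N-acetylaspartate (NAA) to glutamate and so makes the dipeptide N-acetylaspartylglutamate (NAAG), which is abundant in the nervous system. Pkd2l1 encodes a polycystin, a calcium-permeable cation channel of the TRP superfamily, best known from sour-sensing taste cells and from neurons that contact the cerebrospinal fluid. Mgarp encodes a glutamate-rich mitochondrial protein, also called HUMMR, that is induced through the hypoxia-inducible factor HIF-1 and promotes transport of mitochondria along axons in rodent neurons. Basophils are rare granulocytes of allergic and antiparasite responses, and mast cells are tissue cells that share the IgE receptor and many granule mediators with them.

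The 250 bases before the annotated start are shown for Rimkla and Mgarp, the members that the promoter table lists, to give the motifs near their starts. Sequences are from RefSeq, build GRCm38.p6, on the minus strand, at chr4:119492599-119492848 for Rimkla and chr3:51396548-51396797 for Mgarp, where 2 of the 3 genes matched. Capitals mark matches to the motifs searched on both strands.
Rimkla: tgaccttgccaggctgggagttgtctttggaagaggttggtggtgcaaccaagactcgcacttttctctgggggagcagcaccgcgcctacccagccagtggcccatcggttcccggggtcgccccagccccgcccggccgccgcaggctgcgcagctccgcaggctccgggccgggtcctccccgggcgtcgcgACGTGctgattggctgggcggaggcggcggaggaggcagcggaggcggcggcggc
Mgarp: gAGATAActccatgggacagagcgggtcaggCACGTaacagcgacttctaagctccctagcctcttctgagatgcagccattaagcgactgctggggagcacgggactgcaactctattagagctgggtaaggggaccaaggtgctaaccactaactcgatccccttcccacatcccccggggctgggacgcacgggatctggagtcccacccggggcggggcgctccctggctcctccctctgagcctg

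The C/EBP motif TTGCNNAA, held by 9.56% of 32851 mouse promoter windows of this length, was in neither window. The E-box CACGTG, the motif of MITF and its relatives, is held by 6.02% of windows and was in neither. The core motif of HIF, ACGTG, which is contained in that E-box, is held by 16.6% of windows. It began 55 bases before the start in Rimkla, and its reverse complement began 219 bases before the start in Mgarp. The GATA motif AGATAA, held by 9.99% of windows, began 249 bases before the start in Mgarp.

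Median intensity was 24 to 42 per array in the deposited values, and all intensities below are after quantile normalization of the 18 arrays. An intensity under 30 on all 3 arrays of a group was treated as background. The 8 basophil markers summed to 142600 to 175900 in the basophil groups, against 59000 to 63470 in mast cells, where Il4 was at background. The 8 mast cell markers summed to 63070 to 128900 in the basophil groups, against 171700 to 176300 in mast cells, and Mrgprb1 was at background in every group. Cebpa averaged 65.5 ± 6.60 in floxed cells with the drug, against 2778 ± 220 in wild type cells with it. Without the drug it averaged 983 ± 63.6 in floxed cells, against 2369 ± 204 in wild type cells (SD, n = 3 each), a ratio of 0.415. Purified basophils averaged 2243 ± 144 and mast cells 55.5 ± 9.13 (SD, n = 3 each).

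**Figure D1:**
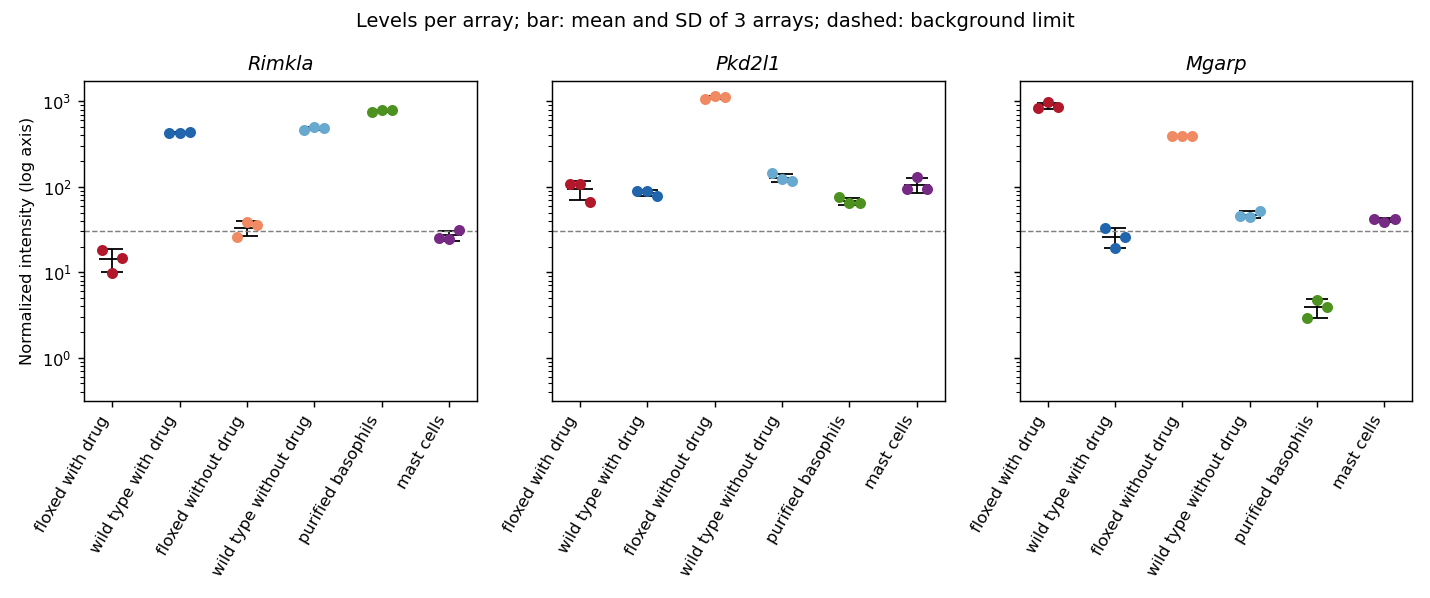
Normalized intensity (log axis) of Rimkla, Pkd2l1 and Mgarp on each of 18 arrays by group; points are arrays, bars are the mean and SD of 3 arrays, and the dashed line is the background limit of 30. Rimkla is low in both floxed groups and in mast cells, Pkd2l1 is high in untreated floxed cells alone, and Mgarp is high in both floxed groups.

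Before the drug, Rimkla read 25.5, 38.3 and 35.3 in floxed cells, against 463.9, 497 and 484 in wild type cells. The floxed arrays lay near the background limit, and the groups were far apart. The log2 difference was -3.35, the third lowest of 19084 genes. Pkd2l1 read 1051, 1151 and 1136 in untreated floxed cells, against 144, 124 and 117 in untreated wild type cells. Each floxed array was several times brighter than any wild type array, with a log2 difference of 2.97 that ranked 4 among the genes higher in floxed cells. Mgarp read 397, 392 and 390.0 in untreated floxed cells, against 46.1, 43.8 and 52.2 in untreated wild type cells. Its log2 difference was 2.69 and ranked 8 among the genes higher in floxed cells, and the groups did not overlap. These are the values the genes were picked on. In this comparison 15.8% of all probes passed the test.

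The treated floxed and treated wild type cells, which the choice of genes did not use, show whether the genotype difference was also present on other arrays. Rimkla was lower and Mgarp higher in treated floxed cells, by large factors, whereas Pkd2l1 did not pass the test. Over the whole array 30.7% of probes passed, with 15.9% higher and 14.9% lower, so that 2 passes among 3 genes say little by their number. Without between-array normalization the split was 4777 higher and 2916 lower, against 4190 and 3926 after quantile normalization.

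Rimkla, the NAAG-making ligase, read 18.3, 9.89 and 14.7 in treated floxed cells, against 424, 421 and 435 in treated wild type cells. All floxed arrays were at background and all wild type arrays were clearly above it. Rimkla was at least 14.2-fold lower in floxed cells, with the floxed values raised to the background limit (limma, adjusted p = 1.67e-13; fitted log2 fold change -3.88 ± 0.11, SE, n = 3 a group). Its dimmer probe read 11.4, 13.8 and 13.6 in treated floxed cells, against 92.0, 55.4 and 72.1 in treated wild type cells. That probe was lower in floxed cells too, at least 2.39-fold (limma, adjusted p = 1.18e-07), and the average of both probes was lower by 2.74 on the log2 scale.

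Mgarp, the mitochondrial protein, read 840.1, 973 and 865 in treated floxed cells, against 33.2, 19.4 and 25.6 in treated wild type cells. The groups did not overlap, and 2 of 3 wild type arrays were under the background limit. Mgarp was higher in floxed cells by a log2 fold change of 4.44 ± 0.11 (limma, adjusted p = 3.37e-14; n = 3 a group), a 21.8-fold difference on the offset scale and a ratio of 34.3 between group means.

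Pkd2l1, the cation channel, read 107, 107 and 66.6 in treated floxed cells, against 88.5, 88.7 and 77.9 in treated wild type cells. The groups overlapped, and the third floxed array was below all wild type arrays. The log2 difference was 0.095 ± 0.15 (limma, adjusted p = 0.699; n = 3 a group), with a 95% interval of -0.21 to 0.40. Over the alternatives adjusted p was 0.113 to 0.999. The difference between the drug conditions was not tested. Of 69 genes at least 4-fold different between the genotypes without the drug, 46 passed the treated comparison in the same direction. Over all probes 30.7% passed in either direction. By direction, these were 38 of 51 genes lower in floxed cells, Rimkla among them, and 8 of 18 higher, Mgarp among them. Of all probes 14.9% were lower and 15.9% higher. The 69 genes were taken by size of difference alone, whatever the spread between arrays, so noisy probes may be among them. Pkd2l1 was among the other 23, as 1 of the 10 higher genes that did not pass.

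**Figure D2:**
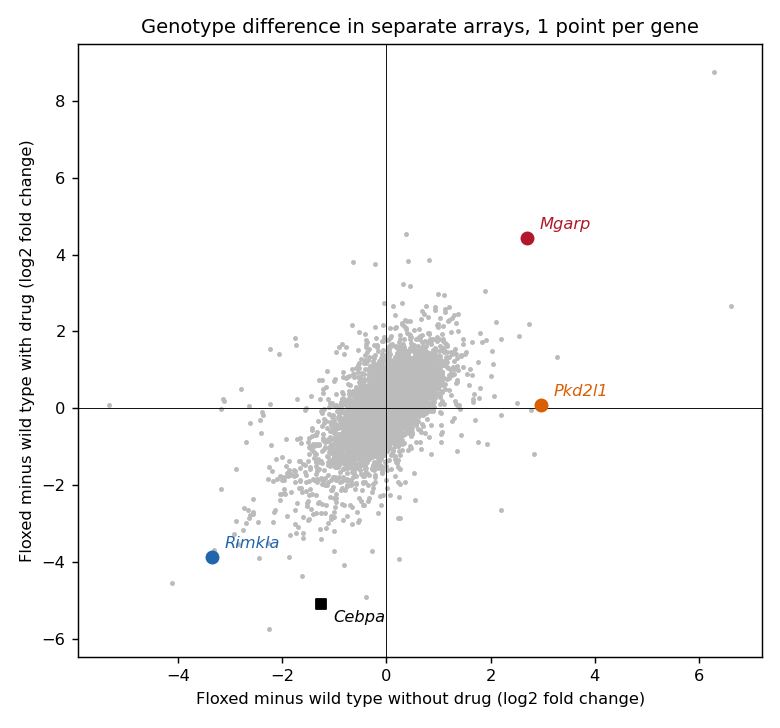
Log2 fold change of floxed minus wild type cells without the drug (x axis) and with it (y axis), 1 point for each of 19084 genes, the axes resting on separate arrays. Rimkla lies low on both axes (-3.35 and -3.88), Mgarp high on both (2.69 and 4.44), and Pkd2l1 at 2.97 without the drug and 0.095 with it; Cebpa is marked by a square.

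Other differences ran alongside the genotype comparison. Neutrophil markers summed to 1462 to 1649 in treated floxed cells, against 12940 to 13050 in treated wild type cells, with 7 of 8 lower and S100a8, Ngp and Elane at background in the floxed cells. Without the drug they summed to 6426 to 6814 in floxed cells, against 13070 to 15110 in wild type cells, with 5 of 8 lower and S100a8 at background. All 7 monocyte and macrophage markers were lower in treated floxed cells, summing to 6725 to 6965, against 13960 to 14550 in treated wild type cells, and none was at background. Eosinophil markers, of which 3 of 5 were higher and 2 lower, summed to 10770 to 11070 in treated floxed cells, against 3428 to 3697 in treated wild type cells. Megakaryocyte markers, of which 3 of 5 were lower, summed to 8675 to 11080, against 13420 to 14720, with Itga2b at background in both. Basophil markers, of which 1 of 8 was higher and 3 lower, summed to 142600 to 148400 in treated floxed cells, against 162400 to 168700 in treated wild type cells. Without the drug 2 of 8 were higher and 1 lower, at 160900 to 165700 in floxed cells, against 166400 to 175900 in wild type cells. Mast cell markers were higher in treated floxed cells for 5 of 8, at a sum of 121400 to 128900, against 84810 to 86090 in treated wild type cells. Without the drug the mast cell markers ran the other way, with 0 of 8 higher and 4 lower in floxed cells, at a sum of 75820 to 76410, against 78020 to 80510 in wild type cells. Of the monocyte and macrophage markers 1 of 7 was higher and 6 lower without the drug, at a sum of 8937 to 10250 in floxed cells, against 11540 to 13300 in wild type cells. Of the eosinophil markers 1 of 5 was higher and 2 lower, at 7404 to 8436 in floxed cells, against 4326 to 4459 in wild type cells. Of the megakaryocyte markers 4 of 5 were lower, at 4272 to 5443 in floxed cells, against 10730 to 12420 in wild type cells. The Y-linked genes Kdm5d, Eif2s3y and Uty were higher in floxed cells both with the drug and without it, Eif2s3y reading 249 to 311 with the drug, against 79.9 to 117 in wild type cells. The part of other cells, and of the sex of the donors, in the 3 genes' levels was not tested. In such bulk samples fewer cells of a type and less RNA per cell cannot be told apart.

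Levels with the drug were set beside those without it in each genotype. These values share the untreated arrays with the choice of genes and carry no test. Over the whole array 19.6% of probes passed for the drug in floxed cells (9.92% higher, 9.67% lower) and 21.3% in wild type cells (11.2% higher, 10.1% lower). Pkd2l1 averaged 93.6 ± 23.3 in floxed cells with the drug, against 1113 ± 54.0 without it (SD, n = 3 each), a ratio of 0.0841. In wild type cells Pkd2l1 averaged 85.0 ± 6.18 with the drug, against 128 ± 14.1 without it. Pkd2l1 was thus lower with the drug in both genotypes, without overlap, by a log2 difference of -3.39 in floxed and -0.51 in wild type cells. Mgarp averaged 893 ± 70.8 in floxed cells with the drug, against 393 ± 3.59 without it. In wild type cells Mgarp averaged 26.1 ± 6.90 with the drug, against 47.4 ± 4.37 without it, so that its arrays lay in opposite order in the 2 genotypes. The wild type levels were near the background limit. Rimkla averaged 14.3 ± 4.23 in floxed cells with the drug, against 33.0 ± 6.68 without it, both at or near background. In wild type cells Rimkla averaged 426.5 ± 7.34 with the drug, against 482 ± 16.8 without it, also with no overlap. Its dimmer probe ran the other way in both genotypes, at 12.9 ± 1.31 with the drug, against 10.1 ± 1.29 without it, in floxed cells (at background in both), and at 73.2 ± 18.3 with it, against 64.5 ± 3.40 without it, in wild type cells, where the arrays overlapped. A direction of the drug effect on Rimkla is therefore not given. Of 4 sex-linked genes measured, 2 were higher and 2 lower with the drug in wild type cells, and 1 was higher and 0 lower in floxed cells. In wild type cells Eif2s3y read 79.9 to 117 with the drug, against 144 to 160 without it. Kdm5d, also Y-linked, ran the other way, at 46.1 to 68.3, against 35.3 to 39.6. The sex-linked Xist read 188 to 229, against 126 to 137. The part of donor sex in these levels was not tested.

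Levels of the 3 genes were set beside Cebpa, which was at an intermediate level in untreated floxed cells (983 ± 63.6, SD, n = 3). Rimkla was near background in those cells, Mgarp was at an intermediate level and Pkd2l1 was at its highest. The genes were picked on the untreated arrays, so these levels restate the choice and are no evidence on a link to Cebpa. Cebpa was dim in treated floxed cells (65.5 ± 6.60) and in mast cells (55.5 ± 9.13), with a log2 difference of 0.19 between them (95% interval -0.035 to 0.42; limma, adjusted p = 0.190). Mgarp averaged 893 ± 70.8 in treated floxed cells, against 40.9 ± 2.17 in mast cells (SD, n = 3 each), while Rimkla was at or near background in both. Mitf, a transcription factor of mast cells, averaged 1736 ± 102 in treated floxed cells, against 429 ± 26.8 in treated wild type cells. Without the drug Mitf averaged 402 ± 11.5 in floxed cells, against 587 ± 15.7 in wild type cells (SD, n = 3 each), the opposite order. Mgarp was higher in floxed cells both times, but the arrays without the drug are those it was picked on. A link to Mitf was not tested.

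**Figure D3:**
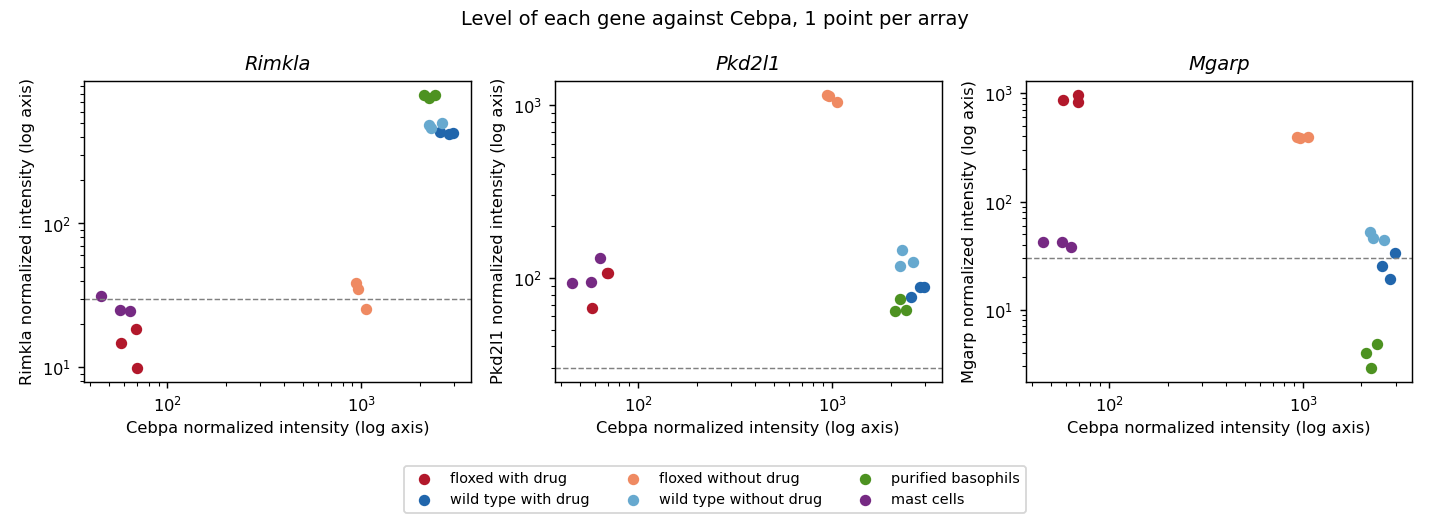
Normalized intensity of Rimkla, Pkd2l1 and Mgarp (y axes, log) against that of Cebpa (x axis, log), 1 point per array, coloured by group, with a dashed line at the background limit of 30. The 3 untreated floxed arrays lie at Cebpa intensities of 935 to 1055, where Rimkla is near background, Pkd2l1 is at 1051 to 1151 and Mgarp at 390.0 to 397. The untreated arrays are those the genes were picked on.

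Purified basophils were set against mast cells as bulk samples, which also differed in markers of other cells and in sex-linked genes, given below. Rimkla was far higher in basophils, Mgarp and Pkd2l1 were lower. Over the whole array 40.6% of probes passed, 18.3% higher (4832) and 22.3% lower (5887), against 8806 higher and 2508 lower without between-array normalization. Rimkla read 747, 783 and 785 in purified basophils, against 25.2, 24.6 and 31.2 in mast cells, of which 2 of 3 arrays were under the background limit. Rimkla was higher by a log2 fold change of 4.20 ± 0.11 (limma, adjusted p = 5.26e-15; n = 3 a group), a ratio of 28.6 between group means. The size depended on the probe, since the dimmer probe averaged 77.3 ± 4.82 in purified basophils, against 26.7 ± 8.46 in mast cells (SD, n = 3 each), a log2 difference of 1.14 ± 0.14 (limma, adjusted p = 2.79e-06) and a ratio of 2.89. The average of both probes gave 2.67. Mgarp read 2.89, 4.78 and 3.94 in purified basophils, against 42.3, 38.4 and 41.9 in mast cells. All basophil arrays were at background and the mast cell arrays were just above it, so that Mgarp was at least 1.36-fold lower in basophils (limma, adjusted p = 2.26e-09).

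Pkd2l1 read 75.5, 65.4 and 63.8 in purified basophils, against 94.6, 129.9 and 93.4 in mast cells. The groups did not overlap, and Pkd2l1 was lower in basophils by a log2 difference of -0.52 ± 0.15 (limma, adjusted p = 0.00774; n = 3 a group). Without mast cell replicate 2, its brightest array, adjusted p was 0.0509, and without between-array normalization it was 0.643, against a range over the alternatives of 0.00401 to 0.643. The cell types differed in culture as well. Neutrophil markers summed to 82160 to 85080 in purified basophils, against 516 to 561 in mast cells, with 7 of 8 higher and S100a8 at background in both. All 7 monocyte and macrophage markers and all 5 eosinophil markers were higher too, the eosinophil markers summing to 45860 to 47450 in purified basophils, against 345 to 404 in mast cells. The Y-linked Eif2s3y read 129.7 to 179.8 in purified basophils, against -3 to 1.5 in mast cells. The part of these differences in the 3 genes' levels was not tested.

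Over the 6 groups, Rimkla on its brighter probe was highest in purified basophils, followed by untreated and then treated wild type cells, untreated floxed cells, mast cells and treated floxed cells. Neighbours in this order overlapped only for untreated floxed cells (25.5 to 38.3) and mast cells (24.6 to 31.2). Mgarp was highest in treated floxed cells, followed by untreated floxed cells, untreated wild type cells, mast cells, treated wild type cells and purified basophils, with no overlap between neighbours. Outside the floxed groups its levels were all near or under the background limit. Pkd2l1 was highest in untreated floxed cells. Below them came untreated wild type cells (117 to 144), mast cells (93.4 to 129.9), treated floxed cells (66.6 to 107) and treated wild type cells (77.9 to 88.7), each overlapping the next, and then purified basophils (63.8 to 75.5).

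Among the 4 groups that the choice of genes did not use, 13 of the 18 pairwise tests passed, 6 of 6 for Rimkla, 6 of 6 for Mgarp and 1 of 6 for Pkd2l1. Over the whole array, 41.5% of probes passed for treated wild type against mast cells (18.5% higher, 23% lower) and 39.8% for treated wild type against purified basophils (20.2% higher, 19.6% lower). For treated floxed cells 35.4% passed against mast cells (15.7% higher, 19.6% lower) and 37.1% against purified basophils (18.4% higher, 18.7% lower). These pairs share samples with each other. Rimkla was lower in treated wild type than in purified basophils by a log2 difference of -0.83 ± 0.11 (limma, adjusted p = 8.99e-06) on the brighter probe, but by -0.085 ± 0.14 on the dimmer one (limma, adjusted p = 0.694), whose arrays overlapped, so that this call rests on 1 probe. In treated floxed cells Rimkla was lower than in mast cells by -0.51 ± 0.11 (limma, adjusted p = 0.00142), a difference near background. Mgarp was higher in treated floxed than in mast cells by 4.00 ± 0.11 on the log2 scale (limma, adjusted p = 1.06e-14). Its passes for treated wild type cells (26.1 ± 6.90) against mast cells (40.9 ± 2.17) and purified basophils (3.87 ± 0.95) were between values near or under the background limit (SD, n = 3 each). Pkd2l1 differed from purified basophils by 0.36 ± 0.15 in treated floxed cells (limma, adjusted p = 0.0670), a comparison that passed without treated floxed replicate 3 (0.55, adjusted p = 0.00259; 0.00259 to 0.455 over the alternatives).

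Genes with the pattern most like each of the 3 were taken from 9335 named genes with a group mean of at least 100, by Pearson's correlation of log2 intensity over the 18 arrays. The arrays fall into 6 groups, so a correlation mainly reflects the group means. They include the untreated arrays on which the 3 genes were picked, so each correlation partly restates the choice. Rimkla was most like the interferon-induced Ifit2 (r = 0.985), the defensin gene Defb40 (r = 0.980), Unc13d, which acts in granule exocytosis (r = 0.980), the interferon-induced Oas2 (r = 0.976) and Trim30b (r = 0.976). Ifit2 averaged 56.5 in treated floxed cells against 544 in treated wild type cells, and 51.9 in untreated floxed cells against 483 in untreated wild type cells. Cebpa came at place 128 for Rimkla, at r = 0.855, against place 3685 for Pkd2l1 (r = 0.083) and place 8397 for Mgarp (r = -0.524).

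Mgarp was most like the tetraspanin gene Tspan4 (r = 0.979), Hrc, a calcium-binding protein of the sarcoplasmic reticulum (r = 0.967), Tarbp2, a partner of Dicer (r = 0.962), Zbtb10 (r = 0.959) and Elmo1, which acts in cell migration and engulfment (r = 0.959). Tspan4 averaged 1138 in treated floxed cells against 386 in treated wild type cells, and 707 in untreated floxed cells against 363 in untreated wild type cells. For Pkd2l1 the highest correlations were lower, with Nudt9, an ADP-ribose hydrolase (r = 0.860), Dus2, a tRNA-modifying enzyme (r = 0.860), Trmt13 (r = 0.853), Ube2o (r = 0.844) and Ndrg2 (r = 0.837). These genes shared a maximum in untreated floxed cells, Nudt9 averaging 562 there against 468 in untreated wild type cells. A high correlation does not mean a like range in any of the 3 sets, since Unc13d averaged 404 to 667 over the groups and Zbtb10 62.2 to 135. Rimkla and Mgarp were correlated at r = -0.797 over the 18 arrays, Rimkla and Pkd2l1 at -0.406, and Pkd2l1 and Mgarp at 0.492. The signs follow in part from the choice of the genes on the untreated arrays, so no relation between the genes is read from them.

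**Figure D4:**
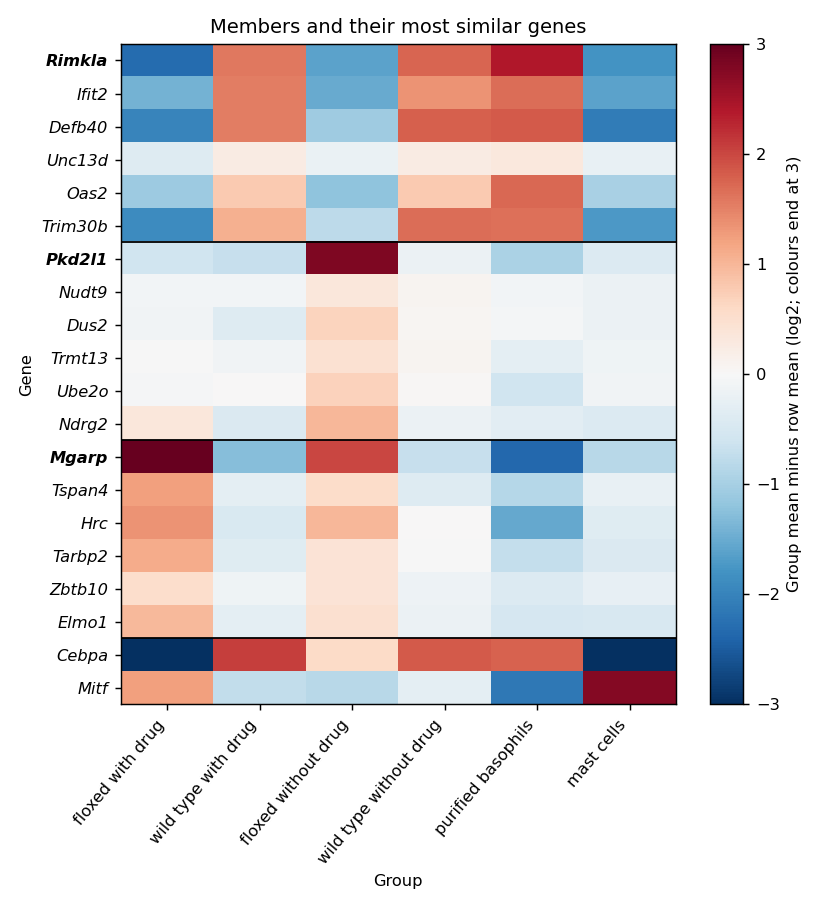
Mean log2 intensity of each group minus the mean of the row, for Rimkla, Pkd2l1 and Mgarp, each followed by its 5 most similar genes, and for Cebpa and Mitf; columns are the 6 groups, and the colours end at 3 log2 units. Some of the similar genes span a far smaller range than the gene they follow, such as Unc13d under Rimkla, Zbtb10 under Mgarp and Nudt9 under Pkd2l1.

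Lists of genes related to each of the 3 by function were read against the share of all probes that passed, 30.7% with the drug and 15.8% without it. These shares include dim probes. With the dimmest 30% of probes left out, 8500 passed with the drug, against 8116 of all 26423, so the share among brighter probes is higher than 30.7%. Of 12 other genes of NAA and NAAG metabolism, 5 were above background in some group, and with the drug 0 were higher and 1 lower in floxed cells (median log2 difference -0.073, against -0.0041 over all probes). That gene was Acy3, an aminoacylase, at least 1.43-fold lower (limma, adjusted p = 0.0105). Without the drug 0 of 12 passed in either direction. Nat8l, the enzyme that makes NAA, averaged 49.7 in treated floxed cells against 41.5 in treated wild type cells (limma, adjusted p = 0.183). Rimklb, the paralogue of Rimkla, was at background in every group of both genotype comparisons and of the cell type comparison, at most 6.67.

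Of 30 other polycystin and TRP channel genes measured, 15 were above background in some group. With the drug 4 were higher and 5 lower in floxed cells (median -0.063), a share close to the 30.7% of all probes. Both shares include dim probes, to a degree that may differ, so the count is not read as a result about these channels. By size of change they were led by the polycystin Pkd2l2 (at least 1.18-fold higher, adjusted p = 3.34e-04), Trpm7, a channel fused to a kinase (0.60 ± 0.094, adjusted p = 9.77e-05), Trpc6 (at least 1.10-fold lower, adjusted p = 3.32e-04) and the magnesium channel Trpm6 (-0.56 ± 0.093, adjusted p = 1.49e-04), all by limma. Without the drug 1 was higher and 4 lower. Pkd1l3, the partner of Pkd2l1 in sour taste cells, averaged 22.9 in untreated floxed cells against 33.6 in untreated wild type cells (limma, adjusted p = 0.734).

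Of 24 genes of mitochondrial transport and shape, 21 were above background in some group. In treated floxed cells 8 of the 24 were higher and 2 lower (median -0.017), where 15.9% of all probes, dim ones included, were higher and 14.9% lower. The largest changes were in Armcx1 (1.27 ± 0.10, adjusted p = 4.29e-08) and Armcx3 (0.89 ± 0.19, adjusted p = 0.00177), outer membrane proteins that act in mitochondrial transport, the fission enzyme Dnm1l (0.76 ± 0.17, adjusted p = 0.00234) and the fusion enzyme Opa1 (at least 1.05-fold lower, adjusted p = 0.00782), all by limma. Trak1 and Trak2, adaptors that link mitochondria to kinesin, did not pass, at log2 differences of -0.031 and 0.018. Without the drug 2 were higher and 2 lower.

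Genes of the HIF pathway, of which Mgarp is a known target, were all above background in some group. The shares of all probes include dim ones. Of these 20 genes, 12 were higher and 3 lower in floxed cells with the drug (median 0.27, against -0.0041 over all probes, of which 15.9% were higher and 14.9% lower). They were led by Car9, a carbonic anhydrase (1.82 ± 0.094, adjusted p = 2.17e-10), Ankrd37 (1.42 ± 0.081, adjusted p = 7.66e-10), the peptide hormone gene Adm (1.15 ± 0.17, adjusted p = 6.45e-05) and, in the other direction, the stress-induced Ddit4 (-1.08 ± 0.11, adjusted p = 5.64e-07), all by limma. Without the drug 9 were higher and 3 lower (median 0.15), where 8.54% of all probes were higher and 7.27% lower. Hif1a itself was lower in treated floxed cells (-0.56 ± 0.096, adjusted p = 2.31e-04 by limma). Of 6 housekeeping genes measured, 3 were higher in treated floxed cells and 0 lower, with a median of 0.36, above that of the HIF list.

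**Figure D5:**
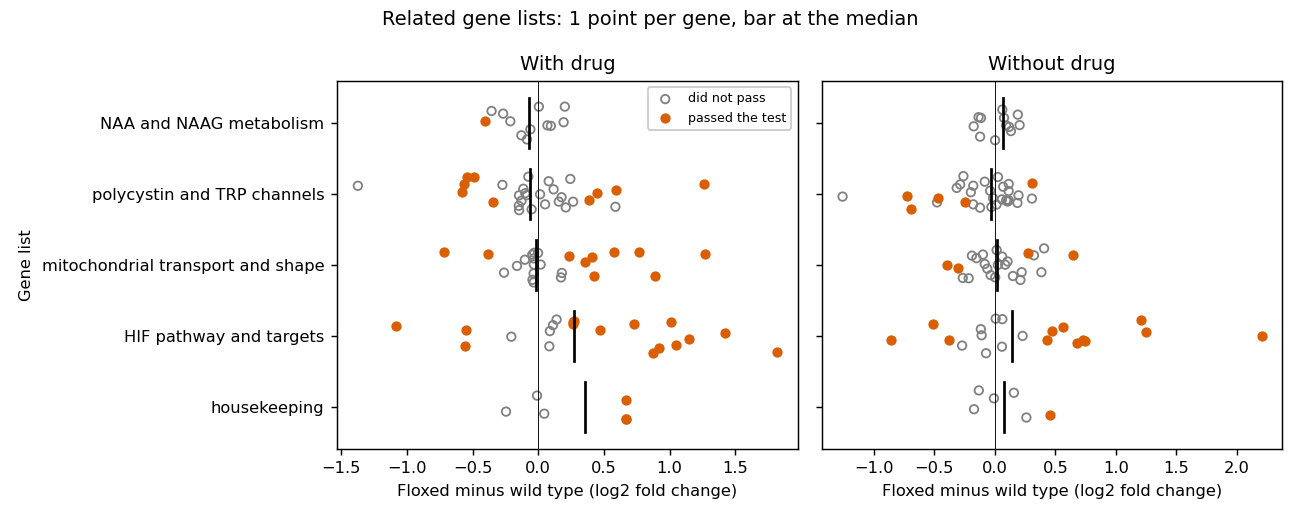
Log2 fold change of floxed minus wild type cells with the drug (left) and without it (right) for the genes of 5 lists, 1 point per gene; filled points passed the limma test, open points did not, and bars mark the median. With the drug, the HIF list has its median at 0.27 and the housekeeping list at 0.36, and the other lists lie near 0.

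Genes next to the 3 on their chromosomes were also measured, as the 5 nearest on each side that have a probe. With the drug 3, 4 and 3 of 10 passed around Rimkla, Pkd2l1 and Mgarp, close to the 30.7% of all probes, and without it 1, 2 and 3 of 10, where 15.8% of all probes passed. The counts say nothing particular about these neighbourhoods. Around Rimkla, 1 of 10 was higher and 2 lower in treated floxed cells, among them Guca2a, which encodes guanylin (at least 1.79-fold lower, adjusted p = 4.07e-04), and without the drug 0 were higher and 1 lower. Around Pkd2l1, 3 of 10 were higher and 1 lower with the drug, among them the fatty acid desaturase Scd1 (-1.14 ± 0.11, adjusted p = 2.79e-07), and without it Cyp2c23, dim in both (29.4 in floxed against 15.6 in wild type cells), and Scd2 (18070 against 14440) were higher. Around Mgarp, 2 of 10 were higher and 1 lower with the drug, and 1 was higher and 2 lower without it. These included the cystine transporter gene Slc7a11 (-1.33 ± 0.10 with the drug, limma adjusted p = 2.09e-08) and the circadian gene Noct (1.35 ± 0.10 without the drug, limma adjusted p = 1.05e-07). Of all 30 neighbours, only Noct passed at 2-fold or more without the drug.

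In purified basophils against mast cells 4, 4 and 7 of 10 passed around Rimkla, Pkd2l1 and Mgarp, where 40.6% of all probes did. The neighbours that passed at 2-fold or more were Ccdc30 (at least 1.92-fold higher) and Frg2f1 (-1.17 ± 0.11) near Rimkla, Cpn1 (-1.03 ± 0.13) near Pkd2l1, and Setd7, a lysine methyltransferase (-1.14 ± 0.15), and Mgst2, a glutathione transferase (-1.33 ± 0.14), near Mgarp. Adjusted p over these 5 was 8.91e-06 at most (limma).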

How the data were processed

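The authors deposited linear probe intensity values of single-dye arrays, already background-subtracted as values down to -9 show. Per the labels, total RNA came from Trizol followed by RNeasy and carried a cyanine label. The sources used here do not give the scanner software or any normalization. Probes were named from the platform annotation (21876 with 1 symbol, 4547 with none), and the brightest probe stood for a gene. Intensities were quantile normalized over 18 arrays, put on a scale of log2(intensity + 16), which understates changes of dim genes, and fitted with a mean per group in limma 3.58.1 (R 4.3.3, lmFit and eBayes, two-sided, Benjamini-Hochberg over 26423 probes, threshold 0.05).

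Where a group was under an intensity of 30 on all arrays, a fold is a bound, from mean log2 intensities with that group raised to 30. The genes, lists and the limit of 30 were chosen with earlier results of these data known. All 3 members, Cebpa and Mitf were named throughout, with the 5 most similar genes, up to 4 list genes by size of change among those that passed with the drug, and neighbours at least 2-fold changed; Nat8l, Rimklb, Pkd1l3, Trak1, Trak2, Hif1a, Cyp2c23, Scd2 and the marker genes were added after their values were seen. Gene positions (RefSeq, GRCm38.p6) served to find neighbours. Same-numbered replicates had correlated deviations of -0.174 to -0.00284, so the numbers were not taken as pairs.

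The fit was tested on simulated data of 26423 probes, with independent normal noise and no group differences other than the shifts. Only probes with a mean intensity above 100 on the log2 scale were shifted, 66 or 67 for each size. The recovery rates therefore do not cover dim probes, such as Rimkla in floxed cells, or data in which many probes differ. For treated floxed against wild type cells it recovered 59.7% of shifts of 0.5 (log2), 98.5% of shifts of 1 and 100% of shifts of 2, and made 8 false calls. For purified basophils against mast cells it recovered 58.2%, 98.5% and 100%, and made 10 false calls.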

Additional observations from a re-analysis of the deposited data

Results flagged for a closer look

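The drug went with a higher level of Mgarp in floxed cells on every array (840.1, 973 and 865 with it, 397, 392 and 390.0 without it) and with a lower level in wild type cells on every array (33.2, 19.4 and 25.6 with it, 46.1, 43.8 and 52.2 without it). The log2 drug effect was 1.15 in floxed and -0.60 in wild type cells, a difference of 1.75. The wild type values lay near the background limit of 30, with 2 of 3 treated arrays under it, so the fall there is a change between dim values. The difference was not tested, since the untreated arrays were used to pick the gene. Sex-linked genes also differed between wild type cells with and without the drug, and the part of donor sex was not tested.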

How the results depend on the processing

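Of 297 member values under the alternatives, 281 kept their direction and their side of the threshold, including all run for Mgarp. Of Rimkla, only treated wild type against purified basophils on the dimmer probe did not (-0.085, adjusted p = 0.694), an alternative chosen after seeing the data, for all 6 pairs. The others were of Pkd2l1. Its genotype difference with the drug (0.095) was -0.0090 with median scaling, -0.024 with scaling on probes above background and -0.0016 to 0.29 with 1 array left out. In purified basophils against mast cells it was -0.12 without between-array normalization (adjusted p = 0.643) and -0.60 to -0.39 with 1 array left out. In treated floxed against mast cells (-0.17) it was 0.065 without between-array normalization and -0.26 to 0.024 with 1 array left out. Against purified basophils it passed in 1 alternative for treated wild type cells and in 6 for treated floxed cells. The cause was not tested. An offset of 50 gave log2 differences of -2.89 for Rimkla and 3.63 for Mgarp with the drug, by its construction. Probes past the test numbered 6200 to 8539 for genotype with the drug and 9176 to 11314 for cell type, and 12 to 15 of the 18 member pairs passed. Without between-array normalization the cell type split was 8806 higher and 2508 lower, against 4832 and 5887, and the median of all probes was 0.16 against -0.044. The replicate block gave 7879 and 10635 probes and changed no member's call but Pkd2l1 in treated floxed against purified basophils (0.36, adjusted p = 0.0435), and 0 of 6 samples correlated best with their own number. Levels near an intensity of 30 limit Rimkla in floxed and mast cells and Mgarp in wild type cells and purified basophils.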
